A study of Mus musculus with 4 samples.

Results

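Mitochondrial ribosomal protein genes encode the protein part of the mitoribosome, the ribosome that translates the messages of the mitochondrial genome. They were taken as the gene IDs of both count tables whose mouse symbol is Mrpl or Mrps followed by a number and at most 1 letter, which gave 78 of the 55536 genes. The rule uses the symbol and no measured value. By subunit, 26 of them encode small-subunit proteins and 51 encode large-subunit proteins. The last one, Mrps36, carries a ribosomal symbol but encodes a component of the 2-oxoglutarate dehydrogenase complex. Dap3, Ptcd3, Aurkaip1, Chchd1 and Gadd45gip1 also encode mitoribosome proteins, have other symbols and are described as a related list.

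The mitoribosome pairs ribosomal RNAs transcribed inside the organelle with proteins that are all encoded in the nucleus, translated in the cytoplasm and imported. Its products are core subunits of the respiratory chain and of ATP synthase, which makes it necessary for oxidative phosphorylation. Some of its proteins have bacterial homologs and carry names such as uL1m or bS6m, while others are particular to mitochondria and carry names such as mL37 or mS22. Fibrillarin is the methyltransferase that C/D box snoRNAs direct to their target RNAs, mainly in the nucleolus, and AF357425 is a mouse snoRNA of that class.

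The study compared 4 libraries from C57BL/6 ear-clipping fibroblasts, primary cells that were cultured with KN93 for 48 h and transfected for 24 h. AF357425-High and AF357425-Low pulldown libraries hold RNA recovered with an antibody to fibrillarin, depleted of ribosomal RNA before sequencing. The whole-cell libraries of AF357425-High and AF357425-Low hold RNA of the lysate. The states are called High and Low below. The sample characteristics give AF357425-High as overexpression and AF357425-Low as inhibition. The treatment protocol names gapmers, which are antisense oligonucleotides, against AF357425 or a scrambled control, so which transfection stands behind each state is not settled by the labels. Each group is 1 library, so no difference below has a replicate check and no test between groups was possible. Each log2 ratio is given with a 95% interval that covers counting error only.

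Reads assigned to genes numbered 25857770 in the High pulldown, 27832061 in the Low pulldown, 22082565 in High whole-cell RNA and 21693030 in Low whole-cell RNA. The 12S and 16S ribosomal RNAs of the mitochondrion took 63.4% and 59.8% of these reads in the High and Low pulldowns, against 0.0926% and 0.0583% in the High and Low whole-cell libraries. The gene AF357425 itself was listed at 0 reads in all 4 libraries, so its counts check neither state. Of 10 fibroblast markers, 9 or 10 reached 1 CPM (a count per 1e6 gene reads) in every library, while no keratinocyte, melanocyte or skeletal muscle marker did. Of 5 macrophage markers, 3 reached 1 CPM in each whole-cell library and 0 in the pulldowns, with sums of 1.35 and 1.94 CPM in the High and Low pulldowns and 8.11 and 7.79 CPM in the High and Low whole-cell libraries, and of 4 endothelial markers 1 did in every library. Chondrocyte markers summed to 113.4 and 140.4 CPM in the High and Low pulldowns and to 262.7 and 185.5 CPM in the High and Low whole-cell libraries, with Matn1 at 0. The part of such cells in the ratios below was not tested. In bulk RNA, fewer cells of a type and less RNA per cell cannot be told apart.

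Promoter sequence is a feature of the members that the choice by symbol did not use. RefSeq promoter windows of GRCm38.p6, which run from 250 bases before to 50 bases after an annotated start, were matched by symbol to 69 members with 75 windows. Short words known for the ETS-family factor GABP (CCGGAAGT), for NRF1 (GCGCATGC) and for YY1 (AAGATGGC) were searched on both strands. GABP, NRF1 and YY1 are transcription factors long associated with nuclear genes for mitochondrial proteins. The ETS word stood in 16% of the member windows and in 5.15% of 21263 windows of protein-coding genes. The NRF1 word stood in 10.7% of member windows and 3.52% of coding windows, and the YY1 word in 16% and 3.05%. At least 1 of these 3 words was present in 29 of the 75 member windows (38.7%), against 11% of coding windows. The GC box GGGCGG was present in 52.0% of member windows and 46.2% of coding windows, and TATAAA in 6.67% and 12.6%. The searched NRF1 word overlaps its own reverse complement in the longer run GCGCATGCGC, which was counted once per window. A word is a description of these letters and not a bound site.

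The stretches printed here are the last 120 bases before the annotated start, on the strand of the gene, for members whose words lie in that stretch and whose stretch overlaps no annotated gene. Mrpl32 is shown as the member with the highest pulldown-to-whole-cell ratio, and Mrpl17, Mrps22 and Mrpl3 as members that carry 1 word. The window of Mrpl32 also holds the YY1 word, farther from the start than the bases shown. Capitals mark the NRF1 word in Mrpl32 (chr13:14613038-14613157, minus strand) and Mrpl17 (chr7:105811088-105811207, minus strand), and the ETS word in Mrps22 (chr9:98601680-98601799, minus strand) and Mrpl3 (chr9:105053148-105053267, plus strand).
Mrpl32: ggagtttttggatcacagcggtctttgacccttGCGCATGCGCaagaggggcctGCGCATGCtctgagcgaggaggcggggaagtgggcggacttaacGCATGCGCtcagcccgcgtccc
Mrpl17: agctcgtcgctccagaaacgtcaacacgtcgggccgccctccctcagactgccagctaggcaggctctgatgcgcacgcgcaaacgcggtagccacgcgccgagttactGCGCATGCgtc
Mrps22: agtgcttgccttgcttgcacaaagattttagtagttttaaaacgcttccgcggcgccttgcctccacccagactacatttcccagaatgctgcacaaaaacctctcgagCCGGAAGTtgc
Mrpl3: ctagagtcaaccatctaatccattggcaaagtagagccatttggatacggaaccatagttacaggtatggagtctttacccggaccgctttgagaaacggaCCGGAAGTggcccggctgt

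The genes are scattered: they lie on 17 chromosomes, with 11 members on chromosome 11, 8 on chromosome 17 and 7 on chromosome 6. One pair is adjacent, Mrpl46 and Mrps11 on chromosome 7 (GRCm38.p6), with 41 bases between their spans. The spans of 25 members overlap another annotated gene. The strand setting of the counting is not stated in the labels, so reads of such a member and of its neighbour may not be separable.

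The members together held 7473 reads in the High pulldown, 9188 in the Low pulldown, 33053 in High whole-cell RNA and 31889 in Low whole-cell RNA. Scaled to the gene reads this is 289 CPM (95% exact Poisson interval 282 to 296) in the High pulldown and 330 CPM (323 to 337) in the Low pulldown. The whole-cell sums were 1497 CPM (1481 to 1513) in High and 1470 CPM (1454 to 1486) in Low. The sums were thus lower in the pulldown in both states. Counted in CPM over the reads outside the mitochondrial ribosomal RNAs, the sums were 791 and 821 in the High and Low pulldowns, against 1498 and 1471 in the High and Low whole-cell libraries. A median member had 65 and 86.5 reads in the High and Low pulldowns and 397.5 and 379 reads in the High and Low whole-cell libraries.

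Mrpl40 and Mrpl53, both large-subunit genes, were listed at 0 reads in all 4 libraries, and Mrpl22, for the large-subunit protein uL22m, had 1 read in Low whole-cell RNA and 0 elsewhere. At these depths a count of 0 allows up to 0.116 and 0.108 CPM in the High and Low pulldowns and 0.136 and 0.138 CPM in the High and Low whole-cell libraries, for counting error only. The span of Mrpl53 overlaps that of Ccdc142. The other 75 members had at least 10 reads in each whole-cell library. Because the tables give no transcript lengths, levels are not compared between genes.

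In whole-cell RNA the members showed almost the same levels in both states. Of 75 members with a mean of at least 1 CPM, 0 had a whole interval beyond 2-fold in either direction, beside 0.111% of 13519 genes higher and 0.133% lower in High. The median log2 ratio of High over Low was -0.03 for the members and -0.01 for all genes, after scaling by the trimmed mean of M-values (TMM). With library totals the members' median was 0.03, so its sign depends on the scaling. The ratios of 73 members lay within 1.5-fold. Their standard deviation was 0.19 on the log2 scale, against 0.33 over all genes and 0.10 over the cytoplasmic ribosomal protein genes. Counting error alone corresponds to 0.12 at the members' read numbers.

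The widest whole-cell differences were in small-subunit genes. Mrps34, whose protein mS34 is specific to mitochondria, had 218 reads in High and 333 in Low, a log2 ratio of -0.70 (-0.95 to -0.45). Its interval excluded equal levels and did not pass 2-fold. Mrps18b had 25 reads in High and 39 in Low, a ratio of -0.73 (-1.52 to 0.03), and its interval included equal levels. Mrps31, for mS31, was the highest with 277 reads in High and 205 in Low, a ratio of 0.34 (0.08 to 0.61). Mrpl47, for the large-subunit protein uL29m, had 401 and 298 reads in High and Low, a ratio of 0.34 (0.12 to 0.56).

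The remaining low ratios among the lowest 10 ran over Mrpl44, Mrpl13, Mrps10, Mrpl28, Mrpl10, Mrpl52, Mrpl57 and Mrps23, between -0.38 and -0.25. The remaining high ratios among the highest 10 ran over Mrpl9, Mrps35, Mrpl36, Mrpl50, Mrpl11, Mrps22, Mrps12 and Mrpl15, between 0.28 and 0.19. Mrpl10 encodes uL10m, the base of the ribosomal stalk, and Mrps12 encodes uS12m of the decoding centre. In all, 7 members had an interval entirely above equal levels and 11 entirely below. Over all genes these shares were 18.0% and 20.5%. The medians of small-subunit and large-subunit genes were -0.04 and -0.03.

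In the pulldown the members' state ratios lay farther apart than in whole-cell RNA, in both directions. Of the 67 measured members, 0 had a whole interval beyond 2-fold, beside 3.43% of 10736 genes higher and 2.9% lower in High. With the line at 1.5-fold, 5 members were higher and 3 lower, and the shares over all genes were 7.71% and 7.85%. The interval excluded equal levels in 22 members on the higher side and 18 on the lower side, and in 31.5% and 32.5% of all genes. The members' ratios had a standard deviation of 0.63, against 0.82 over all genes and 0.39 over the cytoplasmic ribosomal protein genes, and counting error alone corresponds to 0.24. Their quartiles were -0.39 and 0.63, against -0.41 and 0.38 over all genes, and 56.7% of members lay within 1.5-fold, against 67.1% of all genes.

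The members' median in the pulldown was 0.12, against -0.01 over all genes. With library totals it was -0.17, and the median of all genes moved by -0.29, so the direction of the members as a group flips with the scaling. The same holds for their summed reads, with a log2 ratio of 0.10 (0.06 to 0.15) after TMM scaling and -0.19 (-0.24 to -0.15) by library totals. The members' median minus that of all genes was 0.13 in each scaling, since a scaling moves both alike. It was 0.11 over members that overlap no other gene and 0.18 without the filter on low values.

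**Figure D1:**
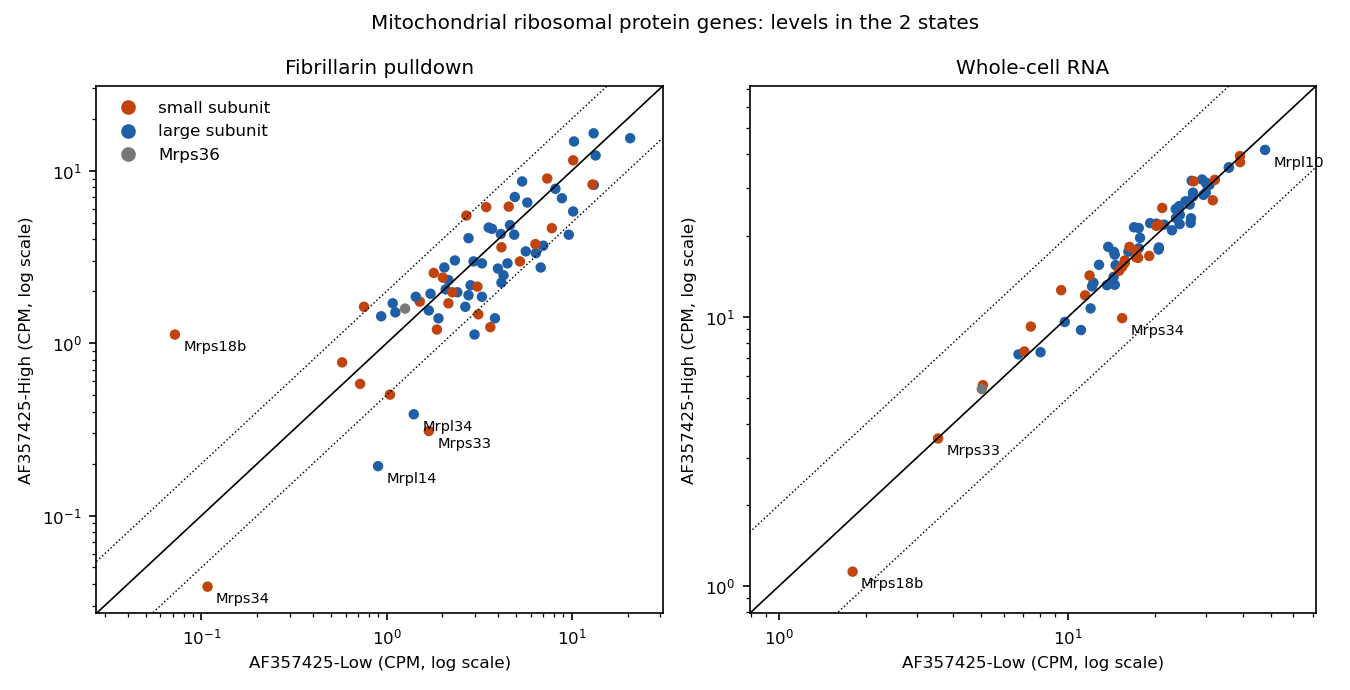
Levels of each member in High (vertical) against Low (horizontal), in CPM by library totals on log axes, for the pulldown on the left and whole-cell RNA on the right. Each point is 1 gene with reads in both libraries, colours give the subunit, the solid line marks equal levels and the dotted lines 2-fold. The whole-cell points stay close to the line, while the pulldown points scatter around it. The genes labelled in the pulldown panel, such as Mrps18b (29 and 2 pulldown reads in High and Low), have few reads there.

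Among small-subunit genes, Mrps28, for bS1m, had 42 pulldown reads in High and 21 in Low, a log2 ratio of 1.40 (0.61 to 2.23). Mrps25, for the mitochondria-specific mS25, had 142 pulldown reads in High and 75 in Low, a ratio of 1.32 (0.91 to 1.75). Mrps15, for uS15m, had 159 pulldown reads in High and 96 in Low, a ratio of 1.13 (0.75 to 1.51). These 3 genes had the highest pulldown ratios of the measured members, and their whole-cell ratios were 0.01, -0.05 and -0.08. The spans of Mrps28 and Mrps25 overlap other genes, while that of Mrps15 does not.

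At the other end stood Mrps27, whose protein mS27 belongs to the pentatricopeptide repeat family, with 32 pulldown reads in High and 101 in Low, a ratio of -1.26 (-1.88 to -0.67). Its whole-cell reads were 401 in High and 353 in Low, a ratio of 0.09 that included equal levels. Mrps31 had 38 pulldown reads in High and 87 in Low, a ratio of -0.79 (-1.38 to -0.23), the opposite side from its whole-cell ratio. Mrps21, for bS21m, at 0.80 and Mrps22, for mS22, at -0.52 were the other small-subunit genes among the 10 highest and 10 lowest. The small-subunit genes had a median of 0.09 over 20 measured members.

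Among large-subunit genes, Mrpl47 had 224 pulldown reads in High and 150 in Low, a ratio of 0.98 (0.67 to 1.29). Mrpl32, for bL32m, had 382 and 286 pulldown reads in High and Low, a ratio of 0.82 (0.59 to 1.04). Mrpl47 was thus higher in High in both kinds of library, while the whole-cell ratio of Mrpl32 was 0.04. Mrpl41, Mrpl28, Mrpl49 and Mrpl24 lay between 0.95 and 0.81, and each of their intervals excluded equal levels.

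The lowest large-subunit ratios were those of Mrpl16, Mrpl54, Mrpl45 and Mrpl51. Mrpl16, for uL16m, had 36 pulldown reads in High and 107 in Low, a ratio of -1.17 (-1.76 to -0.61). Mrpl45, whose protein mL45 holds the mitoribosome at the inner membrane, had 71 and 189 pulldown reads in High and Low, a ratio of -1.01 (-1.43 to -0.61). Their whole-cell ratios were -0.12 and -0.20. Mrpl54 had 29 pulldown reads in High and 83 in Low, a ratio of -1.12 (-1.78 to -0.49), and Mrpl51 stood at -0.88, Mrpl4 at -0.65, Mrpl1 at -0.64 and Mrpl35 at -0.60. The large-subunit genes had a median of 0.14 over 46 measured members.

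Members with a bacterial homolog had a median pulldown ratio of 0.35 over 41 genes, and mitochondria-specific members one of -0.06 over 25 genes. In whole-cell RNA the medians of these classes were -0.03 and -0.05. Members with at least 1 of the ETS, NRF1 and YY1 words had a median pulldown ratio of -0.02 over 24 genes, and members with a window and none of these words one of 0.31 over 35 genes. Members whose span overlaps another gene had a median of 0.29 over 22 genes, against 0.09 over 45 genes without an overlap. All these splits describe 1 library a state.

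**Figure D2:**
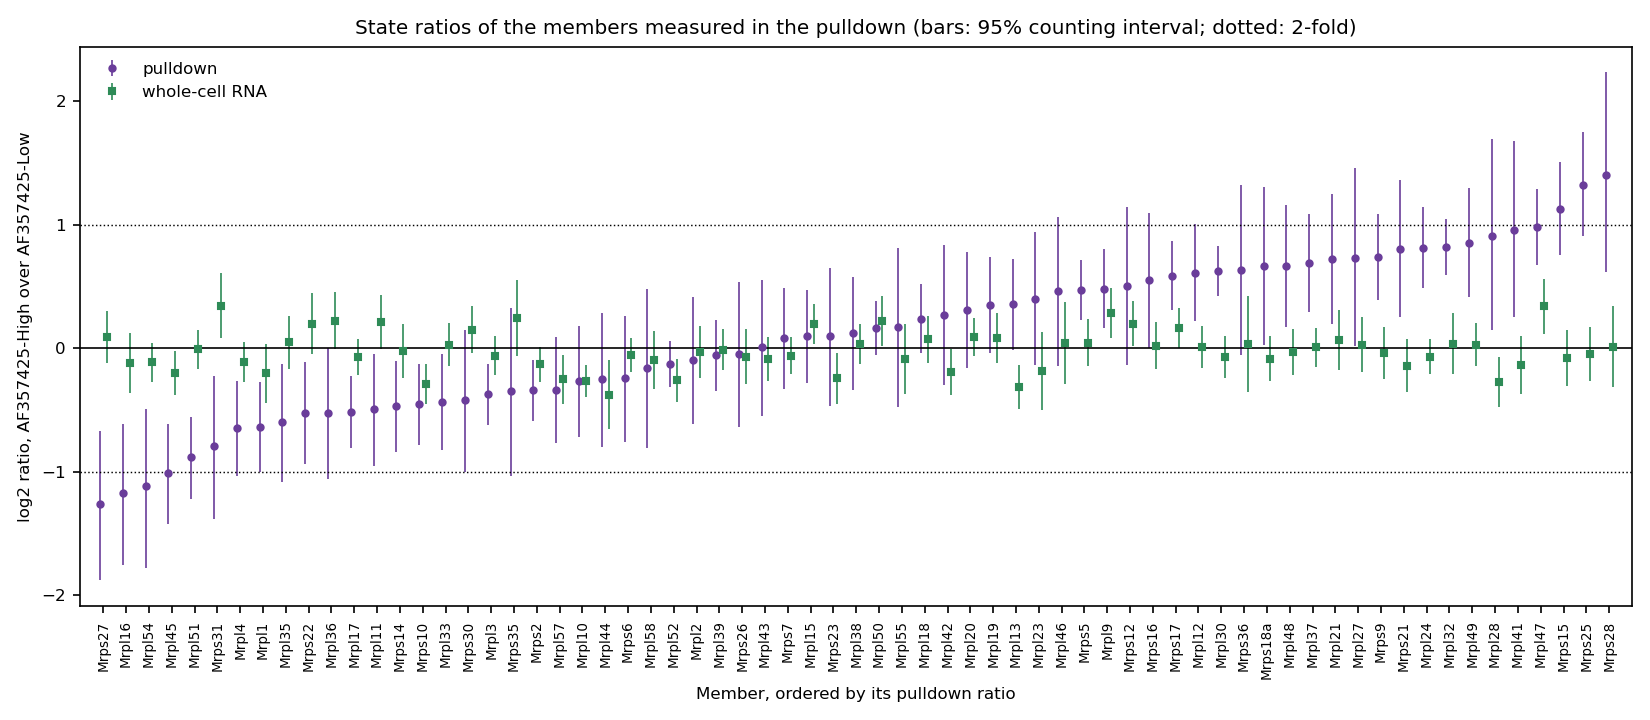
Log2 ratio of High over Low for the 67 members measured in the pulldown, after TMM scaling, ordered by the pulldown ratio. Circles are the pulldown, squares whole-cell RNA, bars 95% counting intervals and dotted lines 2-fold. The pulldown ratios run from -1.26 for Mrps27 to 1.40 for Mrps28, while the whole-cell ratios of these genes stay near 0.

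Besides the genes listed near 0, Mrpl14, Mrpl34, Mrps11, Mrps18b, Mrps18c, Mrps24, Mrps33 and Mrps34 had a mean under 1 CPM in the pulldown and were not measured between the states there. Mrps33, for mS33, had 8 pulldown reads in High and 47 in Low, a ratio of -2.15 (-3.45 to -1.06). Mrps18b had 29 pulldown reads in High and 2 in Low, a ratio of 4.26 with a counting interval of 2.28 to 7.37. These were the only members whose interval passed 2-fold between the states in any library when the filter was dropped. Mrpl14 had 5 and 25 pulldown reads in High and Low (-1.92, -3.66 to -0.51), and Mrpl34 had 10 and 39 (-1.56, -2.73 to -0.53).

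Mrps18a, Mrps18b and Mrps18c encode 3 related proteins that occupy different places. Mrps18c encodes bS18m of the small subunit, Mrps18b encodes mS40 of the small subunit, and Mrps18a encodes mL66, which sits in the large subunit despite its symbol. Mrps18a had 48 and 40 pulldown reads in High and Low and 513 and 511 whole-cell reads in High and Low. Mrps18c had 13 and 29 pulldown reads in High and Low and 123 and 110 whole-cell reads in High and Low. In whole-cell RNA the intervals of all 3 genes included equal levels, with ratios of -0.08, -0.73 and 0.07 for Mrps18a, Mrps18b and Mrps18c. Mrps30, which encodes mL65 of the large subunit, stood at -0.42 in the pulldown and 0.15 in whole-cell RNA. Mrps36 stood at 0.63 (-0.06 to 1.32) and 0.04.

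Pulldown reads of the members were set against whole-cell reads of the same state by library totals. The labels name depletion of ribosomal RNA for the pulldown libraries only. Pulldown and library preparation therefore cannot be told apart in any of these ratios. In High, 67 of 75 measured members had an interval entirely more than 2-fold lower in the pulldown and 0 entirely higher, beside 74.1% of 12773 genes lower and 2.41% higher. In Low, 66 of 74 were lower and 0 higher, beside 62.4% of 12774 genes lower and 2.58% higher. The members' median log2 ratio was -2.86 in High and -2.24 in Low, against -2.15 and -1.75 over all genes. In both states, 64 of 74 members (86.5%) were entirely more than 2-fold lower. By that line the share was 60.6% of all genes, 89.7% of cytoplasmic ribosomal protein genes and 97.3% of nuclear oxidative phosphorylation genes. Ratios below equal levels in both states were found in 73 of the 74 members and in 11006 of 12382 genes.

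Library totals in the pulldown include the mitochondrial ribosomal RNAs, so a scaling without them places every gene higher. TMM scaling moved the median of all genes by 1.84 in High and 1.43 in Low. The members' median then was -1.02 in High and -0.81 in Low, and fewer members lay beyond 2-fold. In High 19 were lower and 3 higher, beside 22.6% and 13.2% of all genes, and in Low 30 were lower and 0 higher, beside 26.3% and 13.6% of all genes. The members' median was below that of all genes by 0.71 in High and by 0.49 in Low under each scaling, since a scaling moves both alike. The difference in Low was 0.25 over members that overlap no other gene, 0.72 with the other-named subunits added and Mrps36 left out, and 0.78 with the filter on low values raised to 5 CPM. The difference in High was 0.36 without the filter on low values. Measured against the median of all genes, 50 members were below it in both states, 12 above it in both and 12 on different sides in the 2 states. The like shares over all genes were not counted, so how far these counts depart from them is not shown.

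The members differed widely among themselves, and in much the same order in both states. Over 74 members the ratios in High and Low had a Pearson correlation of 0.81 and a Spearman correlation of 0.73, as a description across genes from libraries with no shared reads. The ratio of High over Low was not alike between the pulldown and whole-cell RNA, with a Pearson correlation of 0.06 over 67 members. The order over members of the pulldown ratio had only a weak relation to the span of the gene, with a Pearson correlation of 0.22 in High and 0.19 in Low.

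**Figure D3:**
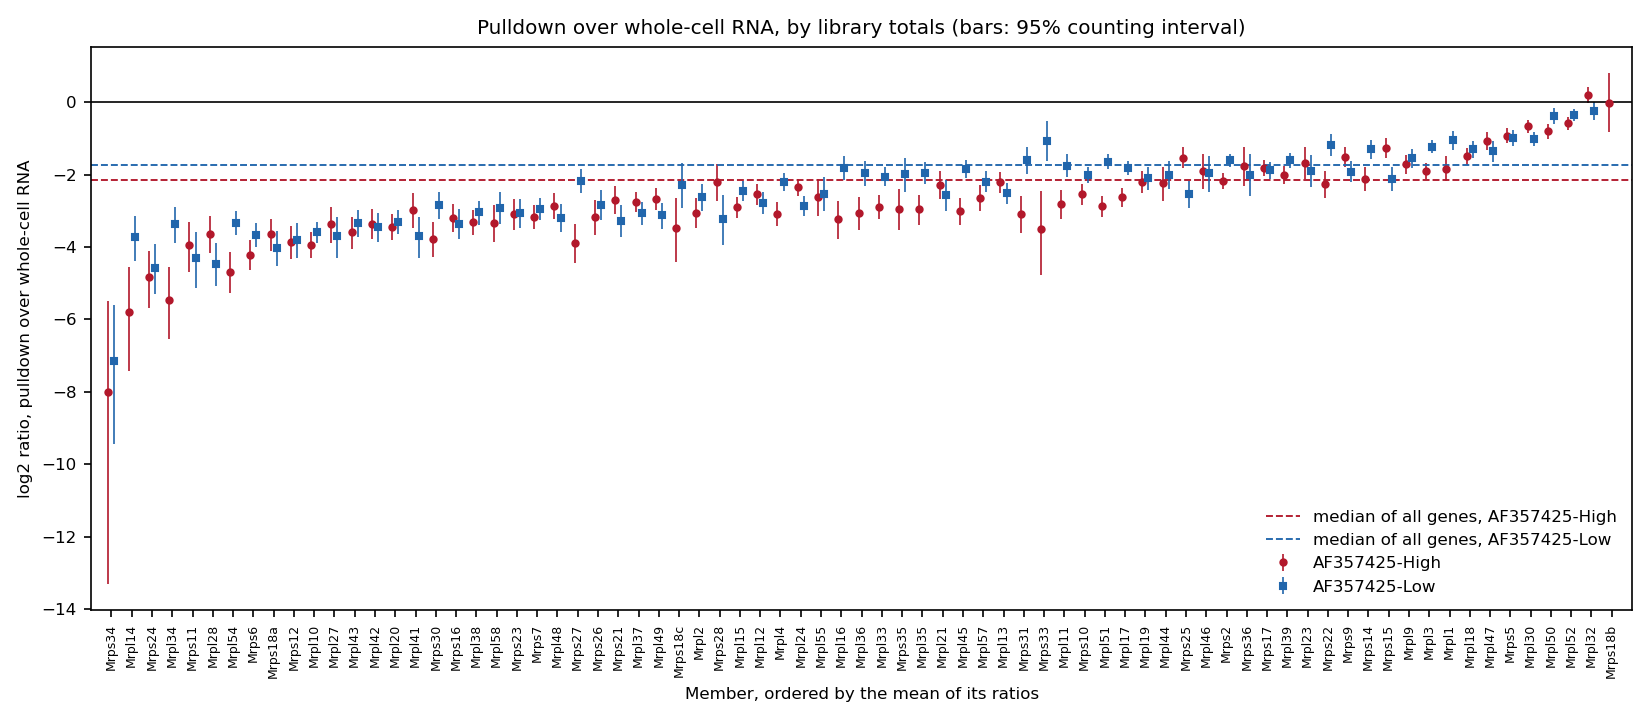
Log2 ratio of pulldown over whole-cell RNA by library totals, for High (circles) and Low (squares), with 95% counting intervals, for the 75 members measured in High, ordered by the mean of the ratios shown. Dashed lines are the medians of all genes, -2.15 and -1.75. The ratios reach from Mrps34 at -8.0 and -7.15 to Mrpl32 at 0.19 and -0.23.

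Mrpl32 (chromosome 13, 14610301 to 14613037, GRCm38.p6) stood at the upper end. It had 382 reads (14.8 CPM) in the High pulldown and 286 (13.0 CPM) in High whole-cell RNA, a log2 ratio of 0.19 (-0.04 to 0.42). In Low it had 286 reads (10.3 CPM) in the pulldown and 262 (12.1 CPM) in whole-cell RNA, a ratio of -0.23 (-0.48 to 0.01). Both intervals included equal levels, in libraries where by library totals most genes were several-fold lower.

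Mrpl52, Mrpl50 and Mrpl30 of the large subunit and Mrps5 of the small subunit followed. Mrpl52, for mL52, stood at -0.59 in High and -0.36 in Low, and Mrpl50, for mL50, at -0.80 and -0.38. Mrpl30, for uL30m, stood at -0.66 in High and -1.0 in Low, and Mrps5, for uS5m, at -0.92 and -0.99. Under TMM scaling, under totals without the mitochondrial ribosomal RNAs and under totals without the 20 most abundant genes, Mrpl30, Mrpl32, Mrpl50, Mrpl52 and Mrps5 had intervals above equal levels in both states. No other member did, and under library totals none did. The share of all genes with such intervals in both states was not counted. By the stricter 2-fold line, and in each state alone, 13.2% of all genes in High and 13.6% in Low were higher under TMM scaling.

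The next highest ratios in High were those of Mrpl47, Mrps15, Mrpl18 and Mrps9, between -1.07 and -1.50. In Low they were those of Mrpl1, Mrps33, Mrps22, Mrpl3 and Mrps14, between -1.05 and -1.30. Mrps18b had 29 pulldown and 25 whole-cell reads in High, a ratio of -0.01 (-0.84 to 0.82), and 2 pulldown and 39 whole-cell reads in Low, a ratio of -4.64 with a counting interval of -7.74 to -2.70. These few reads place Mrps18b near equal levels in High and far below in Low.

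At the lower end, Mrps34 (chromosome 17, 24895120 to 24896289) had 1 pulldown read against 218 whole-cell reads in High, and 3 pulldown reads against 333 whole-cell reads in Low. Its ratios were -8.0 (-13.31 to -5.50) and -7.15 (-9.44 to -5.59). Mrpl14, for uL14m, stood at -5.79 in High and -3.73 in Low, and Mrpl34, for bL34m, at -5.46 and -3.37. Mrps24, for uS3m, stood at -4.84 and -4.58, Mrpl54 at -4.68 and -3.32, and Mrps6, for bS6m, at -4.21 and -3.66.

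In High the lowest ratios also included Mrps11, Mrpl10, Mrps27 and Mrps12, between -3.96 and -3.86. In Low they also included Mrpl28 at -4.46, Mrps11 at -4.31, Mrps18a at -4.03, Mrps12 at -3.81, and Mrpl27 and Mrpl41 at -3.71 each. A set of 18 members was more than 2-fold lower in both states under all 4 scalings, beside 18.0% of the 12382 genes measured in both states. These were Mrpl10, Mrpl14, Mrpl20, Mrpl27, Mrpl28, Mrpl34, Mrpl38, Mrpl42, Mrpl43, Mrpl54, Mrps6, Mrps7, Mrps11, Mrps12, Mrps18a, Mrps24, Mrps30 and Mrps34. Both subunits, and both bacterial-homolog and mitochondria-specific proteins, are among them.

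The adjacent pair differed. Mrpl46, for mL46, had 50 pulldown reads against 160 whole-cell reads in High, a log2 ratio of -1.91, and 48 against 146 in Low, a ratio of -1.96. Mrps11, for uS11m, had 20 pulldown reads against 265 whole-cell reads in High, a ratio of -3.96 (-4.69 to -3.30), and 16 against 248 in Low, a ratio of -4.31 (-5.14 to -3.59). In whole-cell RNA their High to Low ratios were 0.04 and 0.01.

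By class, small-subunit and large-subunit genes had median pulldown-to-whole-cell ratios of -3.01 and -2.84 in High and of -2.28 and -2.32 in Low. Members with a bacterial homolog and mitochondria-specific members had medians of -2.63 and -2.97 in High and of -2.24 and -2.54 in Low. Members whose span overlaps another gene had medians of -2.71 in High and -2.87 in Low, and members without an overlap had medians of -2.91 and -2.0. All 23 overlapping members measured in both states were entirely more than 2-fold lower in both, against 41 of 51 without an overlap. Of those 51, 50 had ratios below equal levels in both states. Reads that HTSeq found ambiguous between genes made up 9.38% and 8.54% of all reads in the High and Low pulldowns, against 1.05% and 1.09% in the High and Low whole-cell libraries. The part of ambiguous reads in these ratios was not tested.

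The difference between the state ratios of pulldown and whole-cell RNA was measured for 71 members with at least 10 reads in each library. Here 0 had an interval beyond 2-fold, beside 2.65% of 11356 genes higher and 1.66% lower. The median was 0.13 for the members and 0.00 for all genes, and by library totals it was -0.23 for the members. After TMM scaling it was 0.02 over 49 members that overlap no other gene and 0.30 over 22 that overlap another gene. Beyond 1.5-fold lay Mrps25 at 1.37 and Mrps15 at 1.21 on the higher side and Mrpl34 at -1.73 and Mrps27 at -1.35 on the lower side. The shares of all genes beyond that line were 7.0% and 5.94%.

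Mrps28 at 1.39, Mrpl28 at 1.18 and Mrpl41 at 1.09 were the other members above 1 on this log2 scale, with intervals that reached within 1.5-fold. Mrps21, Mrpl24, Mrpl49, Mrpl32 and Mrps9 lay between 0.94 and 0.77. On the lower side, Mrps31, Mrpl16, Mrpl54, Mrpl51, Mrps18c, Mrpl45, Mrpl36 and Mrps22 lay between -1.14 and -0.72. Of these, Mrps18c at -0.83 (-1.84 to 0.19) had an interval that included no difference.

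The other genes of mitochondrial translation were set beside the members from lists chosen with earlier results of these data known. The first list holds the mitoribosome subunits with other names. Dap3 had 243 and 228 pulldown reads in High and Low, a ratio of 0.49, and Ptcd3 had 370 and 659, a ratio of -0.43. None of the 5 lay beyond 2-fold between the states in either kind of library, and Gadd45gip1 was not measured in the pulldown. In the pulldown against whole-cell RNA, 4 of the 5 were entirely more than 2-fold lower in both states, beside 60.6% of all genes. For this and the lists below, ratios below equal levels in both states were found in 11006 of 12382 genes. Ptcd3 at -1.11 (-1.25 to -0.97) in Low was the exception, lower but not by that line.

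Mitoribosome assembly and ribosomal RNA processing factors had a median of -0.10 between the states in the pulldown, over 19 of 28 genes, and 0 lay beyond 2-fold. Mrm1, a 16S ribosomal RNA methyltransferase, was lowest at -1.42, and Mrm2, another one, was highest at 1.64. Mrm2 also had a difference between its state ratios of 1.98, beyond 2-fold, from 40 and 17 pulldown reads in High and Low and 61 and 73 whole-cell reads in High and Low. In whole-cell RNA this list had a median of 0.10 with 0 of 28 beyond 2-fold, from Rpusd3 at -0.87 to Mtg1 at 0.48. In the pulldown against whole-cell RNA 20 of 28 (71.4%) were entirely more than 2-fold lower in both states, beside 60.6% of all genes. Ratios below equal levels in both states were found in 27. Grsf1, an RNA-binding protein of mitochondrial RNA granules, was the highest in both at -0.07 in High and 0.15 in Low, and Mtg2 at -6.04 and Rpusd3 at -5.02 were the lowest in High and Low.

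Mitochondrial translation factors had a median of -0.42 between the states in the pulldown, with 12 of 15 below equal levels (80.0%), beside 50.8% of all genes. Mtrf1l, a peptide chain release factor, lay beyond 2-fold at -1.56, from 39 pulldown reads in High and 152 in Low. It was the lowest, and Rmnd1 at 1.00 was the highest. In whole-cell RNA the list ran from Mtif2 at -0.44 to Gfm2 at 0.22 with 0 of 16 beyond 2-fold. In the pulldown against whole-cell RNA, 8 of 16 were entirely more than 2-fold lower in both states, and all 16 had ratios below equal levels in both. Slirp had 0 reads in both pulldowns, against 444 and 362 whole-cell reads in High and Low. Mtif2 at -0.71 in High and Mtif3 at -0.09 in Low were the highest of that list.

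The list of mitochondrial aminoacyl-tRNA synthetases also holds Gatb, Gatc and Qrsl1, which encode subunits of the glutamyl-tRNA amidotransferase. Its median between the states in the pulldown was -0.52, with 14 of 17 genes below equal levels (82.4%), beside the same 50.8% of all genes. Nars2, for asparagine, lay beyond 2-fold at -2.0, from 27 pulldown reads in High and 143 in Low, and the difference between its state ratios was -1.89. Lars2, for leucine, was the only gene of the list entirely more than 2-fold higher in the pulldown than in whole-cell RNA in both states. By the same line 10 of 20 were lower in both, and 18 had ratios below equal levels in both. Lars2 had 40326 and 30541 pulldown reads in High and Low, against 1026 and 1815 whole-cell reads in High and Low, which gave pulldown-to-whole-cell ratios of 5.07 and 3.71. Iars2 had the next most pulldown reads of the list, 1102 in High and 1075 in Low. Counts per gene do not show where in the Lars2 locus its reads lie, and whether they come from its message was not tested. Lars2 had the highest pulldown ratio of its list between the states, 0.80, and the lowest whole-cell ratio, -0.91, and the difference between them was 1.72. The highest whole-cell ratio of the list was that of Qrsl1 at 0.18. Sars2 was the lowest in the pulldown against whole-cell RNA, at -7.11 in High and -5.61 in Low, with 2 and 6 pulldown reads.

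Mitochondrial transcription and biogenesis factors include the factors whose words were counted in the promoters. Their median between the states was -0.32 in the pulldown over 12 of 16 genes and 0.04 in whole-cell RNA over 13, with 0 beyond 2-fold in either. In whole-cell RNA Gabpa stood at -0.01, Nrf1 at 0.05 and Yy1 at 0.14, and the list ran from Mterf1a at -0.13 to Tfb2m at 0.28. In the pulldown it ran from Tefm at -1.01 to Mterf2 at 0.93. In the pulldown against whole-cell RNA 6 of the 12 measured in both states were entirely more than 2-fold lower in both. All 12 had ratios below equal levels in both. Ppargc1a was highest at 0.16 in High, Gabpa was highest at -0.15 in Low, and Esrra was lowest at -6.07 and -5.49.

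The ribosomal RNAs that the members' proteins bind were far higher in the pulldown. The 12S ribosomal RNA (mt-Rnr1) had 13430006 and 13197946 pulldown reads in High and Low, against 1459 and 1138 whole-cell reads in High and Low, log2 ratios of 12.94 and 13.14. The 16S ribosomal RNA (mt-Rnr2) had ratios of 7.06 in High and 7.87 in Low. Between the states mt-Rnr1 stood at 0.43 in the pulldown and 0.27 in whole-cell RNA, and mt-Rnr2 at 0.19 and 0.63. Depletion of ribosomal RNA is named in the labels for the pulldown libraries and not for whole-cell RNA. The 2 kinds of library may thus differ in preparation as well. Pulldown and library preparation cannot be told apart in these ratios.

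**Figure D4:**
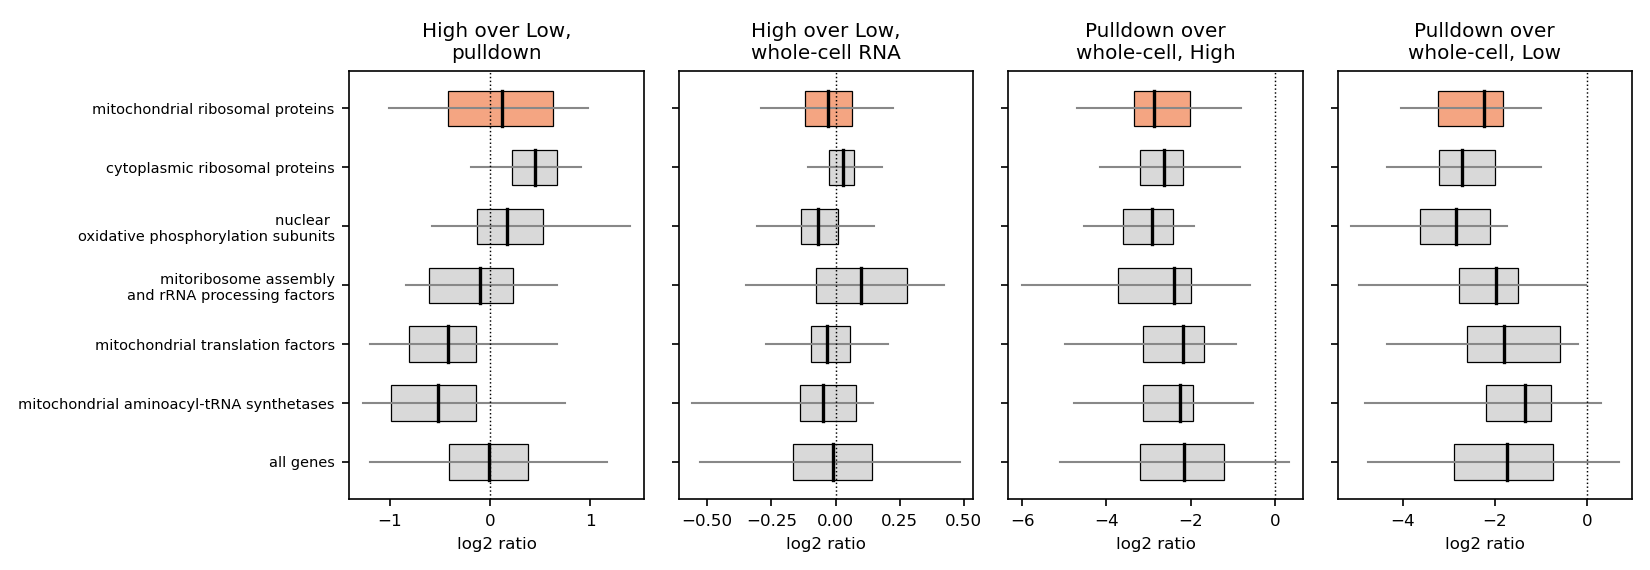
Log2 ratios by gene list for High over Low in the pulldown, the same in whole-cell RNA, and for pulldown over whole-cell RNA in High and Low. Boxes span the quartiles with the median as a bar, grey lines run from the 5th to the 95th percentile of genes, and dotted lines mark equal levels. The members (top row) have medians of 0.12, -0.03, -2.86 and -2.24 in the order of the panels, and the bottom row shows all measured genes.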

How the data were processed

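RNA-seq counts were analysed for 4 libraries, 1 a group. The authors deposited whole-number counts per gene, in a table for each kind of library. Per the submitters' processing notes, cutadapt 2.4, STAR 2.6.0c, HTSeq 0.9.1 and StringTie 1.3.4 were used with GRCm38. No annotation version or strand setting is named in the labels or headers. The HTSeq summary lines, ambiguous reads among them (1.05% to 9.38% of reads), were left out of gene values. Pulldown columns were matched to samples by the state in their names.

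From these counts, log2 ratios with exact (Clopper-Pearson) 95% intervals were computed for genes whose mean reached 1 CPM, after TMM scaling (edgeR 4.0.16, R 4.3.3) between states and by library totals between pulldown and whole-cell RNA, where most genes differ. The change of a ratio over 4 libraries needed 10 reads in each and has a normal interval. A gene counts as beyond the line where its whole interval lies beyond 2-fold, or 1.5-fold where stated. DESeq2 1.42.0 gave median-of-ratios scaling as an alternative. The computation of the intervals was checked on simulated counts. They cover counting error only, and PCR duplicates are not independent molecules.

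Symbols come from a list of mouse gene names matched by gene ID, and spans from RefSeq tables of GRCm38.p6 (78 of 78 members matched). The members and all lists were chosen with earlier results of these data known. The named genes are the 10 highest and 10 lowest members of each comparison, every member beyond the line, members with symbols at odds with their place, and from each related list its extremes and genes beyond the line. The most and least abundant members per length were not named, because the tables used here give no transcript length. Members named for their adjacency, promoter words or reads below the filter were chosen after their values were seen.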

Additional observations from a re-analysis of the deposited data

Results flagged for a closer look

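Mrpl28 and Mrps31 had state ratios on opposite sides of equal in the 2 kinds of library, with both intervals excluding equal levels after TMM scaling. Mrpl28, for bL28m, stood at 0.91 (0.15 to 1.69) in the pulldown and -0.27 (-0.47 to -0.07) in whole-cell RNA, a difference of 1.18. By library totals its pulldown interval, -0.15 to 1.40, included equal levels, while both intervals of Mrps31 still excluded them. Mrps31, for mS31, stood at -0.79 (-1.38 to -0.23) in the pulldown and 0.34 (0.08 to 0.61) in whole-cell RNA, a difference of -1.14. Over all genes, intervals excluded equal levels for 18.0% higher and 20.5% lower in whole-cell RNA, and for 31.5% and 32.5% in the pulldown. The share of all genes on opposite sides in the 2 kinds of library was not counted. Whether these 2 members stand out is therefore not shown. With 1 library a group these differences were not tested.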

How the results depend on the processing

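No paired analysis was possible because the groups hold 1 library each and share no series of replicate numbers, and for the same reason no replicate could be left out. An additive fit that takes the states, or the kinds of library, as each other's replicates was not run. Between the states in whole-cell RNA, 0 members lay beyond 2-fold under each alternative run. In the pulldown this count was 2 without the filter on low values and 8 with the line at 1.5-fold. For pulldown against whole-cell RNA the count beyond 2-fold depended on the scaling. In AF357425-High it was 67 of 75, all lower. It was 22 with TMM (19 lower, 3 higher), 39 without the mitochondrial ribosomal RNAs (38 lower, 1 higher) and 31 without the 20 most abundant genes (30 lower, 1 higher). Under these 3 scalings the median in AF357425-High moved to -1.02, -1.41 and -1.25. In AF357425-Low the count was 66 of 74, and 30 under each of the 3 scalings, all lower. The median in AF357425-Low moved to -0.81, -0.93 and -0.87. Over members that overlap no other gene, 44 of 51 were lower in AF357425-High and 43 of 51 in AF357425-Low. Shares of all genes are given with the results for library totals and TMM, and were not counted separately for the other scalings. The count for the change of the ratio was 2 by library totals and 4 with the line at 1.5-fold. The members' median changed sign with library totals, to -0.17 for the pulldown and 0.03 for whole-cell RNA, as given beside the results. Depth limits the pulldown: a measured member's interval between the states there had a median half-width of 0.45 on the log2 scale, against 0.20 in whole-cell RNA.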
